A study of Mus musculus with 12 samples.

Results

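The genes described here are 10 interferon-induced genes of the Ifit and Oas families, taken as a fixed list of names (Ifit1, Ifit2, Ifit3, Ifit3b, Oas1a, Oas1g, Oas2, Oas3, Oasl1 and Oasl2). All 10 were found among the 47719 genes of the deposited expression table, 4 of them Ifit genes and 6 Oas or Oasl genes, and all 10 passed the filter on low values (1 FPKM in 3 or more of the 12 libraries), as did 14109 genes in all. FPKM counts sequenced fragments after division by transcript length and by library size, so it is a level per length. RNA of mouse kidney cortex was sequenced in 12 libraries, 3 for each of 4 groups. In EtOH4hLPS, mice ate a liquid Lieber-DeCarli diet whose ethanol was raised stepwise to 6%, over 6 weeks in all, and received an intraperitoneal injection of 10 mg/kg E. coli lipopolysaccharide (LPS) 4 hours before the tissue was taken. In EtOH, mice on that diet received saline. In PF4hLPS, mice were pair-fed, with maltose-dextrin supplying the calories of the ethanol, and received LPS, and in PF they were pair-fed and received saline. All mice were C57BL6/J males, 8 weeks old per the labels, which name no transgene or deletion in any group. The labels give whole kidney as the source and cortex as the region. The labels number the replicates 1 to 3 and do not state that each is a separate mouse, so the p-values given here reflect the spread among numbered libraries, some of which may be technical.

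Both families act on foreign RNA and are switched on by interferon. Interferon binds its receptor, the kinases Jak1 and Tyk2 become active, and a complex that holds Irf9 binds interferon-stimulated response elements (ISRE) in promoters. Some Ifit proteins, such as Ifit1, bind viral RNA by its end and keep it from being translated. Such an end is an uncapped triphosphate or a cap without methylation at the first nucleotide. Oas enzymes are activated by paired RNA strands and make oligoadenylates with an unusual linkage, which serve as a second messenger that leads to RNA decay. LPS acts through Tlr4, which can lead to interferon production through the adaptors Ticam2 and Ticam1, the kinase Tbk1 and the factor Irf3.

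The members lie in a few genomic clusters, given here in mm10 coordinates with GENCODE M21 annotation, and all are protein coding. The 4 Ifit genes lie on the plus strand of chromosome 19. They are Ifit2 (ENSMUSG00000045932, from 34550694), Ifit3 (ENSMUSG00000074896, from 34583531), Ifit3b (ENSMUSG00000062488, from 34607970) and Ifit1 (ENSMUSG00000034459, from 34640871 to 34650009). On chromosome 5, Oasl2 (ENSMUSG00000029561, 114896936 to 114912234) and Oasl1 (ENSMUSG00000041827, 114923240 to 114937915) lie side by side on the plus strand. The other Oas members lie on the minus strand of the same chromosome, namely Oas2 (ENSMUSG00000032690, from 120730333), Oas3 (ENSMUSG00000032661, from 120753098), Oas1g (ENSMUSG00000066861, from 120876142) and Oas1a (ENSMUSG00000052776, 120896256 to 120907521).

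Some members are near-identical copies, which matters for how far their values can be told apart. The longest transcripts of Ifit3 and Ifit3b were 97.8% identical over 1700 aligned bases, and those of Oas1a and Oas1g 97.5% over 1860. Of all 50-base stretches of Ifit3 transcripts 51.2% also occurred in Ifit3b, and of those of Oas1a 57.6% occurred in Oas1g. Ifit1 shared 7.13% of its stretches with other genes, mainly Ifit1bl2, while Ifit2, Oas2 and Oasl1 shared none. Fragments from shared stretches may be counted for either copy, so the single values of Ifit3, Ifit3b, Oas1a and Oas1g are uncertain and their sums are given beside them. Oas2 overlaps Gm43068, and Oasl1 overlaps the antisense gene Gm13822. Whether strand was used in the counting is not given in the sources used here, and their reads may be mixed with those of these overlapping genes.

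The promoters of 6 members carried ISRE-like letters, and they are printed so that the matches and their distance from the start can be compared between the members that carry them. Promoter windows from RefSeq (GRCm38.p6, 250 bases before to 50 after a transcription start) were found for 9 of the 10 members. They were searched on both strands for GAAANNGAAA, called ISRE-like, and for TTCNNNGAA, called GAS-like after the interferon-gamma activated sequence. A match is a run of letters, not a site shown to be bound. The 250 bases before the start are given from 5′ to 3′ on the strand of the gene, with ISRE-like matches of either strand in capitals.
Ifit1 (chr19:34640639-34640888, plus strand): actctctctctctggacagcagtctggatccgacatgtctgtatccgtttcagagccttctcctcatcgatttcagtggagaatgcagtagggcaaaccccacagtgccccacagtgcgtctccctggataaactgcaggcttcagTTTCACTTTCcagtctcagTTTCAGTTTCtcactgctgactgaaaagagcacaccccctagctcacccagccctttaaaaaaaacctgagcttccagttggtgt
Ifit3 (chr19:34583279-34583528, plus strand): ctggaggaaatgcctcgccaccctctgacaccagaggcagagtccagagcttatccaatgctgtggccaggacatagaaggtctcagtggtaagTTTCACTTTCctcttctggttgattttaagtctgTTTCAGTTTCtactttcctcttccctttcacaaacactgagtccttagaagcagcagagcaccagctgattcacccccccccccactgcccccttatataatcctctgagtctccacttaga
Ifit3b (chr19:34607707-34607956, plus strand): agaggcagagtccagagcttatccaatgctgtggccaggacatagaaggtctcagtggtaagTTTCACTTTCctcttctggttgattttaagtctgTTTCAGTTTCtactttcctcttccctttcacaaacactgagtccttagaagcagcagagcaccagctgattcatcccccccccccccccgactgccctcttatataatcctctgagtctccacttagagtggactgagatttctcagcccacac
Oas1a (chr5:120907526-120907775, minus strand): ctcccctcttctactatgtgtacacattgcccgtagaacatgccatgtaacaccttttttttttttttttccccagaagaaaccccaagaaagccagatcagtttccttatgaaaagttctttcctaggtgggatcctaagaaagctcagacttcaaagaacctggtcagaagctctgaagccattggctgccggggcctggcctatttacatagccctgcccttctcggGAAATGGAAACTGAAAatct
Oas1g (chr5:120887614-120887863, minus strand): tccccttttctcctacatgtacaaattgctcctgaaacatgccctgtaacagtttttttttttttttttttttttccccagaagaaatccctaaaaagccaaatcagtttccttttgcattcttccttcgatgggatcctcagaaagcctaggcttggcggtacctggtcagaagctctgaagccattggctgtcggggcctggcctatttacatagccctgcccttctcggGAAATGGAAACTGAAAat
Oas3 (chr5:120777660-120777909, minus strand): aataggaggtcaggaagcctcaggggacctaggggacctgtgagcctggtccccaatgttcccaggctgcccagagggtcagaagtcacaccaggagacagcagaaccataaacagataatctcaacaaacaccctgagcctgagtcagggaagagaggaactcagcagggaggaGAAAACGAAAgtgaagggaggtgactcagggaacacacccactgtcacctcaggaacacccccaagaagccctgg

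Ifit1, Ifit3 and Ifit3b each held 2 separate ISRE-like matches, Oas1a and Oas1g held 2 that overlap by 4 bases, and Oas3 held 1. ISRE-like letters occurred in 3.44% of all 32851 RefSeq windows, and 2 or more matches in 0.225%. The windows of Ifit2 (2 annotated starts), Oasl1 and Oasl2 held none, which says only that these letters were not in those windows. The distance from the start differed between the copies. The matches of Ifit3 began 156 and 122 bases before the start and those of Ifit3b 188 and 154 bases before it, whereas in Oas1a and Oas1g the first match began 20 and 18 bases before the start. A GAS-like match was present in Ifit2, at 1 of its 2 starts, and in Oas1a, against 8.3% of all windows. The windows of Ifit3 and Ifit3b were 94.2% identical over 274 aligned bases, and those of Oas1a and Oas1g 86.1% over 303, so these pairs are not independent examples of a shared motif.

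**Figure D1:**
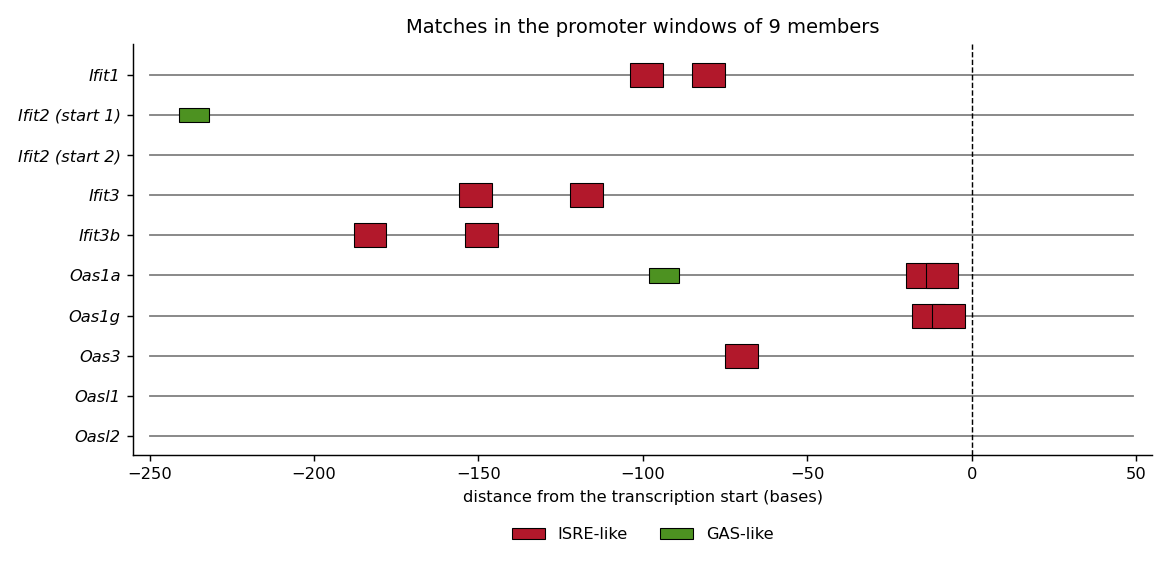
Positions of ISRE-like (red) and GAS-like (green) matches in the RefSeq promoter windows of 9 members, in bases from the transcription start (dashed line); Ifit2 has 2 annotated starts. ISRE-like matches of 6 members lie upstream of the start, within 20 bases of it in Oas1a and Oas1g and between 188 and 66 bases before it in Ifit1, Ifit3, Ifit3b and Oas3, and GAS-like matches lie further upstream in Ifit2 and Oas1a.

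The libraries carried transcripts of kidney cortex, and 1 of 2 inner medullary genes passed the filter as well. The 6 proximal tubule genes (such as Slc34a1 and Lrp2) summed to 1176 to 2116 FPKM and the 4 podocyte genes to 50.5 to 88.8 FPKM. Of the 2 inner medullary genes, the urea transporter gene Slc14a2 was at 0.317 FPKM or less in every library. The other, Aqp4, had 1.45 to 12.2 FPKM in EtOH4hLPS and 5.33 to 17.8 FPKM in EtOH. It had 3.97 to 6.33 FPKM in PF4hLPS and 0.856 to 4.86 FPKM in PF. Whether the libraries held unequal amounts of medulla was not tested. Fragment totals are not in the table, so no counting interval can be given. From the steps between low values, the depth relative to the first PF library was 0.491 to 0.763 in the 6 LPS libraries and 0.719 to 1.2 in the 6 saline libraries. In tissue RNA, fewer cells of a type and less RNA per cell cannot be told apart. Mitochondrially encoded genes are at 0 throughout the table, and a 0 is therefore given as listed and not as absence.

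All 10 members rose with LPS in both diets, and the medians were larger over the Ifit genes than over the Oas genes. A gene is said to have risen or fallen where the limma p, adjusted by Benjamini-Hochberg over all genes tested, was under 0.05. Of the 10, all passed as higher in EtOH4hLPS than in EtOH and in PF4hLPS than in PF by limma, where 10.7% and 11.3% of all 14109 genes tested were called higher (6.39% and 6.89% lower). The median difference in log2(FPKM + 1) over the members was 4.67 in the ethanol diet and 4.79 in pair-fed mice, beside 0.018 and -0.007 over all genes tested. The median over the 4 Ifit genes was 7.25 and 7.65, and over the 6 Oas and Oasl genes 2.47 and 2.54. For every member all 3 LPS libraries lay above all 3 saline libraries in each diet, as did 18.8% of all genes in the ethanol diet and 18.5% in pair-fed mice. Scaling matters for genes with small differences. Of all calls, 62.5% were higher in the ethanol diet and 62% in pair-fed mice, but 35.5% and 25.1% with libraries scaled to equal total FPKM, which moved the median of all genes to -0.263 and -0.404, and 30.8% and 31% with equal totals of protein-coding genes. The 10 members were called higher in both diets under each of the 4 scalings tried. Oas1a, Oas1g, Oas2, Oas3 and Oasl1 reached 1 FPKM in no saline library, so they passed the filter through their LPS libraries and had to differ.

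**Figure D2:**
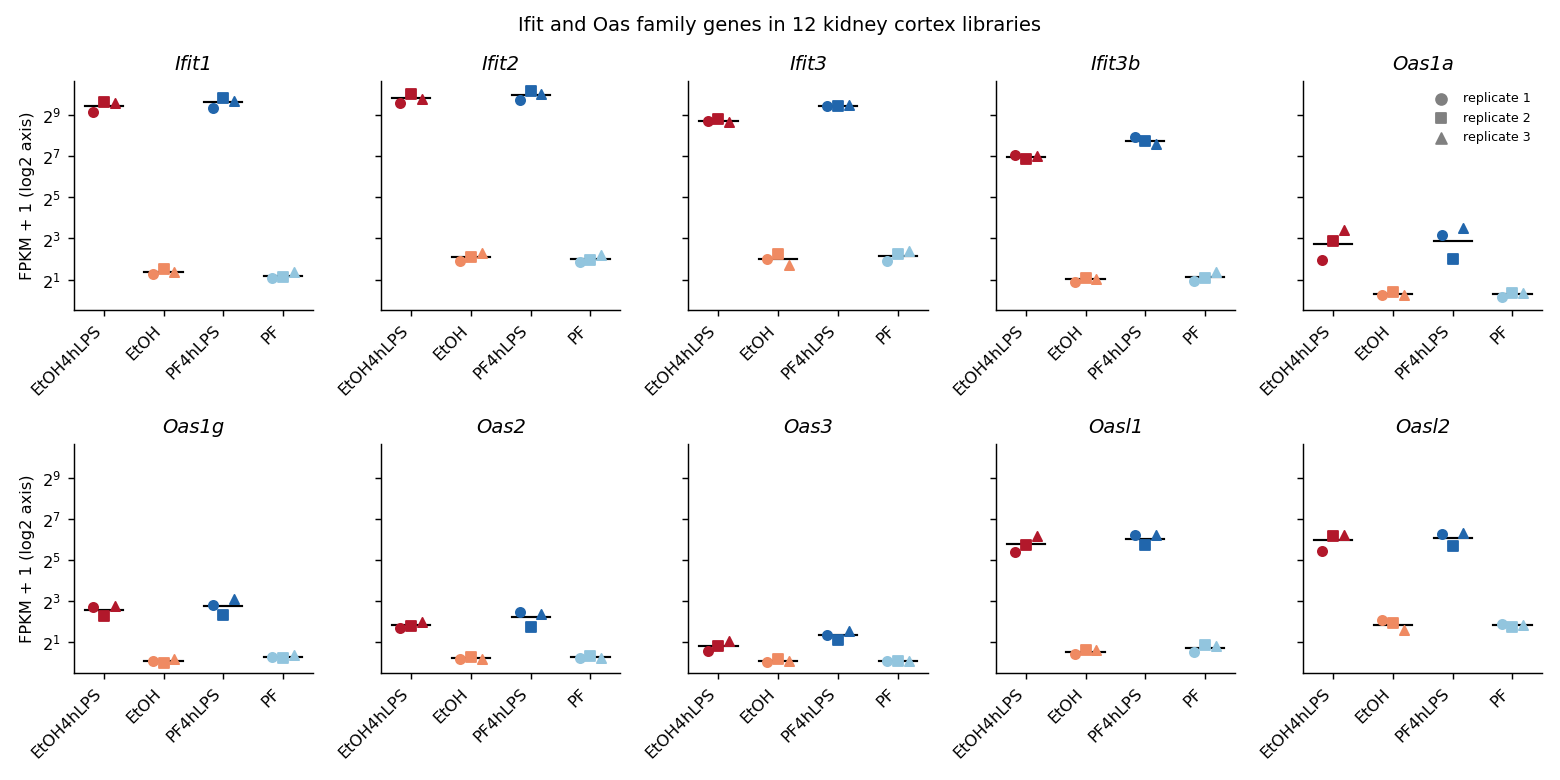
Level of each member in every library, as FPKM + 1 on a log2 axis, with EtOH4hLPS, EtOH, PF4hLPS and PF from left to right. Points are single libraries, with a symbol for each replicate number, and black bars are means of log2(FPKM + 1) over 3 libraries; in all 10 panels the LPS libraries stand above the saline libraries of the same diet.

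Ifit1, whose protein binds RNA ends and blocks translation, went furthest. It stood at 578, 806 and 773 FPKM in EtOH4hLPS, against 1.4, 1.81 and 1.55 FPKM in EtOH. In PF4hLPS it stood at 661, 910 and 843 FPKM, against 1.13, 1.19 and 1.57 FPKM in PF. The difference in log2(FPKM + 1) was 8.11 ± 0.18 (SE) in the ethanol diet and 8.45 ± 0.18 in pair-fed mice (limma adjusted p = 2.01e-10 and 1.82e-10), the second highest of all genes tested in both diets. In terms of rank, Ifit1 was 162nd by mean FPKM among the genes tested in EtOH4hLPS and 11555th in EtOH.

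Ifit2, a partner of Ifit1 that also binds RNA, had the highest level of the family after LPS. EtOH4hLPS libraries held 780, 1056 and 901 FPKM, against 2.78, 3.26 and 3.87 FPKM in EtOH. PF4hLPS libraries held 862, 1148 and 1057 FPKM, against 2.56, 2.91 and 3.61 FPKM in PF. The groups were far apart, with a difference of 7.73 ± 0.19 in the ethanol diet and 7.99 ± 0.19 in pair-fed mice on the log2(FPKM + 1) scale (limma adjusted p = 2.67e-10 and 1.82e-10).

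Ifit3, which in human cells binds and stabilises IFIT1, and its copy Ifit3b were lower than Ifit1 and Ifit2 after LPS in the ethanol diet. Ifit3 measured 425, 454 and 410 FPKM in EtOH4hLPS, against 2.95, 3.73 and 2.31 FPKM in EtOH. It measured 712, 708 and 719 FPKM in PF4hLPS, against 2.71, 3.68 and 4.2 FPKM in PF. The LPS groups of each diet were tight and far above saline, by 6.77 ± 0.18 log2 units in the ethanol diet and 7.31 ± 0.18 in pair-fed mice (limma adjusted p = 3.26e-10 and 1.83e-10). Ifit3b measured 132, 118 and 127 FPKM in EtOH4hLPS, against 0.85, 1.13 and 1.05 FPKM in EtOH. In PF4hLPS it measured 246, 214 and 194 FPKM, against 0.878, 1.13 and 1.59 FPKM in PF. Its differences were 5.98 ± 0.16 and 6.64 ± 0.16 (limma adjusted p = 3.84e-10 and 1.83e-10). Summed over both copies, the level was 555 ± 17.4 FPKM in EtOH4hLPS and 4 ± 0.772 FPKM in EtOH, and 931 ± 23.8 FPKM in PF4hLPS and 4.73 ± 1.11 FPKM in PF (SD, n = 3 each). The ratio of Ifit3b to Ifit3 lay between 0.259 and 0.454 in all 12 libraries.

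Both Oasl genes rose in both diets and had the highest levels of the Oas family after LPS. Oasl1, which has lost the synthetase activity and in mice holds back translation of Irf7 mRNA, had 40.6, 52.9 and 70.8 FPKM in EtOH4hLPS, against 0.322, 0.532 and 0.528 FPKM in EtOH. It had 72.8, 52.8 and 73.1 FPKM in PF4hLPS, against 0.439, 0.816 and 0.779 FPKM in PF. Its differences were 5.22 ± 0.22 in the ethanol diet and 5.32 ± 0.22 in pair-fed mice on the log2(FPKM + 1) scale (limma adjusted p = 1.15e-08 and 9.61e-09). Oasl2, which keeps the enzyme activity in mice, had 42.6, 72.6 and 74.8 FPKM in EtOH4hLPS, against 3.17, 2.77 and 2.01 FPKM in EtOH. It had 76.5, 50.8 and 78.4 FPKM in PF4hLPS, against 2.72, 2.34 and 2.63 FPKM in PF. Its differences were 4.11 ± 0.24 and 4.26 ± 0.24 (limma adjusted p = 2.01e-07 and 1.41e-07). The pair was close to equal after LPS and unequal without it: the ratio of Oasl1 to Oasl2 in FPKM was 0.728 to 0.952 in EtOH4hLPS and 0.102 to 0.263 in EtOH, and 0.932 to 1.04 in PF4hLPS and 0.161 to 0.349 in PF.

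The synthetase genes Oas1a, Oas1g, Oas2 and Oas3 also rose, from lower levels. Oas1a, an active synthetase, had 2.85, 6.32 and 9.72 FPKM in EtOH4hLPS, against 0.177, 0.293 and 0.199 FPKM in EtOH. It had 7.87, 3.05 and 10.4 FPKM in PF4hLPS, against 0.117, 0.261 and 0.254 FPKM in PF. The LPS libraries spread more widely here than for any other member, and the differences were 2.46 ± 0.39 in the ethanol diet and 2.62 ± 0.39 in pair-fed mice on the log2(FPKM + 1) scale (limma adjusted p = 0.000906 and 0.000543). Its copy Oas1g had 5.49, 3.83 and 5.89 FPKM in EtOH4hLPS, against 0.0748 and 0.148 FPKM in EtOH and a listed 0 in EtOH replicate 2. It had 5.97, 4.09 and 7.61 FPKM in PF4hLPS, against 0.225, 0.155 and 0.29 FPKM in PF, and its differences were 2.48 ± 0.20 and 2.46 ± 0.20. Summed, Oas1a and Oas1g stood at 11.4 ± 3.79 FPKM in EtOH4hLPS and 0.297 ± 0.0479 FPKM in EtOH, and at 13 ± 5.49 FPKM in PF4hLPS and 0.434 ± 0.102 FPKM in PF (SD, n = 3 each).

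Oas2, a synthetase with a doubled enzyme domain, and Oas3, which in human cells senses long paired RNA, were the lowest members after LPS. Oas2 had 2.25, 2.42 and 2.93 FPKM in EtOH4hLPS, against 0.125, 0.198 and 0.148 FPKM in EtOH. It had 4.59, 2.4 and 4.17 FPKM in PF4hLPS, against 0.161, 0.255 and 0.177 FPKM in PF. Its differences were 1.61 ± 0.19 and 1.95 ± 0.19 (limma adjusted p = 8.47e-05 and 1.63e-05). Oas3 had 0.485, 0.752 and 1.1 FPKM in EtOH4hLPS, against 0.0188, 0.144 and 0.0464 FPKM in EtOH. It had 1.57, 1.14 and 1.95 FPKM in PF4hLPS, against 0.0437, 0.0442 and 0.0729 FPKM in PF. Its differences were 0.72 ± 0.18 in the ethanol diet and 1.27 ± 0.18 in pair-fed mice (limma adjusted p = 0.0145 and 0.00034), and it passed through only 4 libraries at 1 FPKM or more. The call of Oas3 in the ethanol diet was lost without EtOH4hLPS replicate 3 (limma adjusted p = 0.0695), without EtOH replicate 1 (0.058) and when only these groups were fitted (0.0522).

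The added 1 in the log scale holds the differences of the low members down. With a pseudocount of 0.1, the LPS difference of Oas3 was 2.38 in the ethanol diet and 3.41 in pair-fed mice, that of Oas2 3.36 and 3.64, that of Oas1a 4.16 and 4.41, and that of Oas1g 4.96 and 4.19. On that scale Oasl1 had 6.60 in the ethanol diet and 6.44 in pair-fed mice, Oasl2 4.51 and 4.66, and Ifit1 8.73 and 9.17. The order within the Oas family below Oasl1 therefore depends on the added value, since Oas1g exceeded Oasl2 in the ethanol diet with 0.1 and not with 1. As plain ratios of group means, the Ifit genes were 124-fold (Ifit3b) to 453-fold (Ifit1) higher in EtOH4hLPS than in EtOH and 181-fold to 622-fold higher in PF4hLPS than in PF. Oasl1 was 119-fold higher in the ethanol diet and 97.6-fold in pair-fed mice, Oas1a 28.2-fold and 33.7-fold, Oasl2 23.9-fold and 26.7-fold, Oas2 16.1-fold and 18.8-fold, and Oas3 11.2-fold and 29-fold. Oas1g was 26.3-fold higher in pair-fed mice and 68.4-fold in the ethanol diet, where the EtOH mean includes the listed 0.

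**Figure D3:**
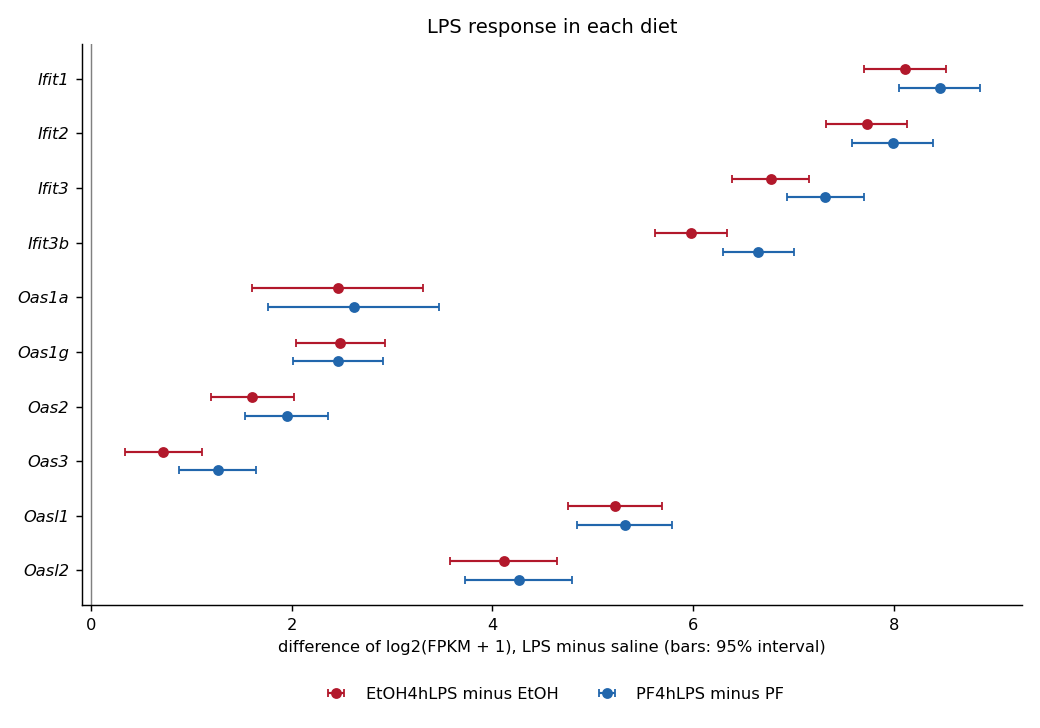
Difference in log2(FPKM + 1) between LPS and saline for each member, in the ethanol diet (EtOH4hLPS minus EtOH, red) and in pair-fed mice (PF4hLPS minus PF, blue), with 95% intervals of the limma fit. All intervals lie above 0, the Ifit genes lie between 5.98 and 8.45 and the Oas and Oasl genes between 0.72 and 5.32.

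Ordered by mean level in EtOH4hLPS, the members ran Ifit2, Ifit1, Ifit3, Ifit3b, Oasl2, Oasl1, Oas1a, Oas1g, Oas2 and Oas3, and the order was the same in PF4hLPS. Neighbours whose libraries overlapped in EtOH4hLPS were Ifit2 with Ifit1, Oasl2 with Oasl1, and Oas1a with Oas1g. In PF4hLPS these pairs overlapped as well, as did Ifit1 with Ifit3 and Oas1g with Oas2. Without LPS the order was another one. In EtOH the highest were Ifit2 (3.31 ± 0.547 FPKM), Ifit3 (2.99 ± 0.712) and Oasl2 (2.65 ± 0.589), which overlapped each other, and in PF they were Ifit3 (3.53 ± 0.757), Ifit2 (3.03 ± 0.532) and Oasl2 (2.56 ± 0.203; SD, n = 3 each). Ifit1, next to the top after LPS, was below these in both saline groups, with 1.59 ± 0.206 FPKM in EtOH and 1.29 ± 0.24 FPKM in PF.

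The ethanol diet was compared with pair-feeding to ask whether it changes this response, and no member passed that test. After LPS, 0 of 10 members were called between EtOH4hLPS and PF4hLPS by limma, where 0.0992% of all genes were called in either direction. At an unadjusted p under 0.05, 3 members and 1524 of 14109 genes were counted. All 10 fitted differences were below 0, with a median of -0.23 beside -0.003 over all genes tested, but with each library scaled to equal total FPKM those of Ifit1, Ifit2, Oas1a, Oas1g and Oasl2 were above 0 and the median of all genes moved to 0.190. Under the other 3 scalings (equal protein-coding total, median-ratio factors and quantile normalization) all 10 were below 0. Differences also turned above 0 without PF4hLPS replicate 3 (Oas1a, Oas1g), without EtOH4hLPS replicate 1 (Oas1a, Oasl2) and without PF4hLPS replicate 2, EtOH4hLPS replicate 1 and PF replicate 1 together (Ifit1, Ifit2). The members share the same 6 libraries, so their 10 directions are not independent.

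Ifit3, Ifit3b and Oas3 were the members whose LPS libraries did not overlap between the diets. For these 3 all EtOH4hLPS libraries lay below all PF4hLPS libraries, as did 5.59% of all genes tested. Ifit3 averaged 429 ± 22.3 FPKM in EtOH4hLPS and 713 ± 5.86 FPKM in PF4hLPS (SD, n = 3 each), a difference of -0.73 ± 0.18 on the log2(FPKM + 1) scale with a 95% interval of -1.12 to -0.35 (limma adjusted p = 0.14). Ifit3b averaged 126 ± 7.47 FPKM in EtOH4hLPS and 218 ± 26.2 FPKM in PF4hLPS, a difference of -0.78 ± 0.16 with an interval of -1.14 to -0.43 (limma adjusted p = 0.0959). With a pseudocount of 5 this difference was -0.77 and Ifit3b was called (limma adjusted p = 0.0456, against 0.0873 to 0.67 under the other alternatives). For the sum of both copies the difference was -0.75 (limma adjusted p = 0.133). Oas3 averaged 0.78 ± 0.31 FPKM in EtOH4hLPS and 1.56 ± 0.405 FPKM in PF4hLPS, a difference of -0.52 ± 0.18 (limma adjusted p = 0.305). It reached 1 FPKM in all PF4hLPS libraries and otherwise only in EtOH4hLPS replicate 3 (1.1 FPKM). Oas3 thus passed the filter mainly through the group where it was higher, which favours such a separation, so its non-overlap is not read as a result.

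The other 7 members overlapped between the diets after LPS. Their differences lay between -0.39 for Oas2 (95% interval -0.80 to 0.02) and -0.13 for Oasl2 (-0.66 to 0.40), and Oas1a had a difference of -0.15 with the largest SE, 0.39. For Ifit1 the difference was -0.16 (-0.57 to 0.24), and for Ifit2 it was -0.16 as well (-0.57 to 0.24). These intervals reach both below and above 0.

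Within a library, Ifit3 stood lower relative to Ifit1 and Ifit2 in the ethanol diet after LPS. The ratio of Ifit3 to Ifit1 in FPKM was 0.53 to 0.735 in EtOH4hLPS and 0.778 to 1.08 in PF4hLPS, and the ratio to Ifit2 was 0.43 to 0.544 in EtOH4hLPS and 0.617 to 0.826 in PF4hLPS. Neither overlapped between the diets. Without LPS the ratio to Ifit1 was 1.49 to 2.1 in EtOH and 2.41 to 3.09 in PF, also apart, while the ratio to Ifit2 was 0.596 to 1.14 in EtOH and 1.06 to 1.27 in PF and overlapped. These ratios were chosen after the values were seen and carry no test, and scaling a library does not change them.

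Without LPS no member passed the test of the diet. Between EtOH and PF, 0 of 10 members were called by limma (0.0284% of all genes were), and 0 members and 521 genes had an unadjusted p under 0.05. The differences ran from -0.20 for Oasl1 (95% interval -0.67 to 0.28) to 0.18 for Ifit1 (-0.23 to 0.58). Only Oas1g had libraries that did not overlap, at 0.148 FPKM or less in EtOH and 0.155 FPKM or more in PF. Its difference was -0.19 (-0.64 to 0.26), its levels are under the filter value, and the share of all genes so separated was not counted. Averaged over both LPS states, 0 of 10 members were called for EtOH and EtOH4hLPS against PF and PF4hLPS (0.319% of all genes were), with 2 members and 1334 genes at an unadjusted p under 0.05. The lowest adjusted p there was 0.164, for Ifit3b.

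**Figure D4:**
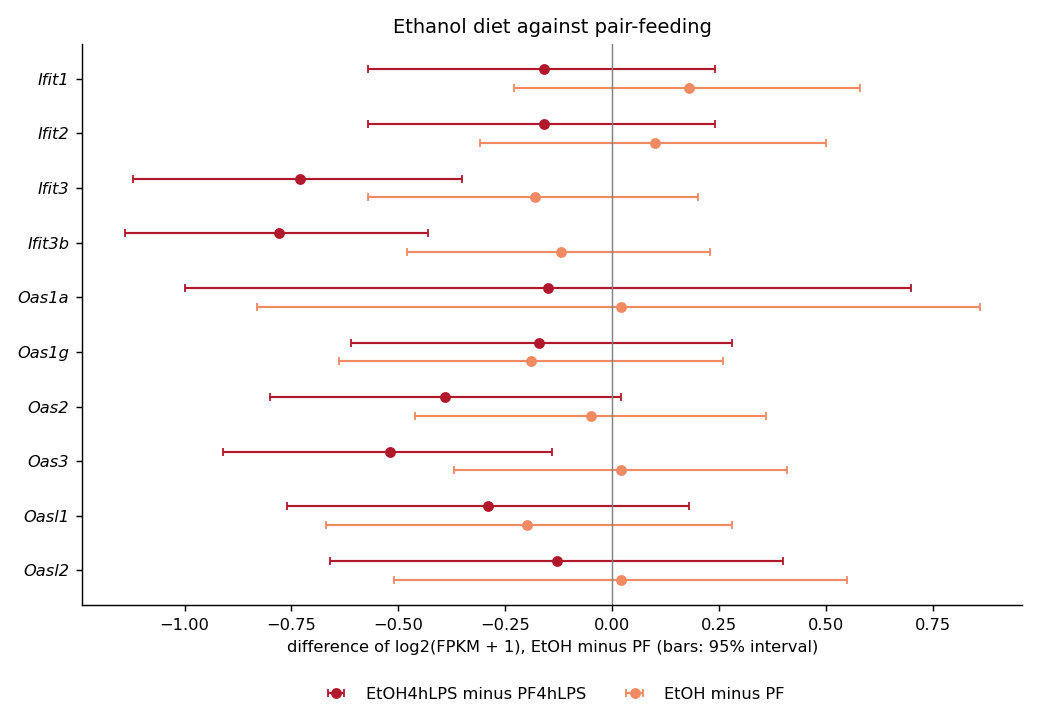
Difference in log2(FPKM + 1) between the ethanol diet and pair-feeding for each member, after LPS (EtOH4hLPS minus PF4hLPS, red) and after saline (EtOH minus PF, orange), with 95% intervals of the limma fit. The intervals of Ifit3, Ifit3b and Oas3 after LPS lie below 0 before adjustment over all genes; none of the differences passed the adjusted threshold, and those of Ifit1, Ifit2, Oas1a, Oas1g and Oasl2 after LPS lie above 0 with equal total FPKM but not under the other 3 scalings tried.

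The LPS responses themselves were not shown to differ between the diets. In the interaction of diet and LPS 0 of 10 members were called by limma (0.0284% of all genes were), and 2 members and 616 genes had an unadjusted p under 0.05. The interaction was -0.66 ± 0.23 for Ifit3b (95% interval -1.16 to -0.16; unadjusted p = 0.0138, limma adjusted p = 0.988) and -0.55 ± 0.25 for Ifit3 (-1.09 to -0.00; limma adjusted p = 0.988). For the other 8 members it lay between -0.54 (Oas3) and 0.02 (Oas1g). The LPS comparisons of the diets do not share libraries with each other, but both share libraries with the diet comparisons.

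In each LPS group 1 library was the lowest for most Oas and Oasl genes. PF4hLPS replicate 2 was the lowest of its group for all 6 Oas and Oasl genes and the highest for 2 of the 4 Ifit genes, and EtOH4hLPS replicate 1 was the lowest of its group for 5 of the 6 and also for 2 of the 4 Ifit genes, by 0.30 log2 units below the group mean for Ifit1 and 0.21 for Ifit2. In Oas1a these libraries lay 0.87 and 0.80 log2 units below their group means. They were also the LPS libraries in which transcripts of high GC content were low, where each step of 10% GC went with -0.412 and -0.308 log2 units. In the 4 remaining LPS libraries that slope was 0.147 to 0.214. These slopes, like the deviations of the members, were taken against the mean of the library's own group. A low slope in 1 library therefore forces higher ones in the rest of its group. Transcript GC content was 42 to 47.5% in the Ifit members and 49.4 to 56.3% in the Oas and Oasl members, beside a median of 48.4% over the genes tested. PF4hLPS replicate 2 and EtOH4hLPS replicate 1 also had the lowest estimated depth of their groups, 0.491 and 0.667 of the first PF library. The 4 remaining LPS libraries were at 0.690 to 0.763. The part of GC content or of depth in these values was not tested. With the GC trend of each library removed, an alternative added after seeing the data, the diet difference after LPS was -0.71 for Ifit3, -0.73 for Ifit3b and -0.64 for Oas3.

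**Figure D5:**
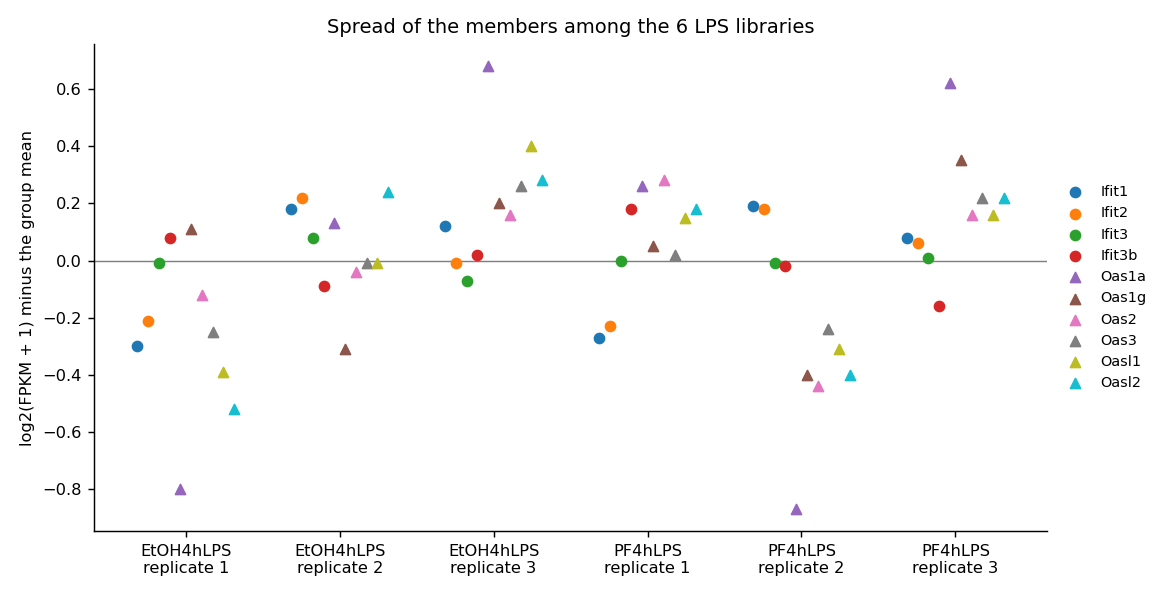
Deviation of each member from the mean of its group, in log2(FPKM + 1), in the 3 EtOH4hLPS and the 3 PF4hLPS libraries; circles are Ifit genes and triangles Oas and Oasl genes. The triangles of EtOH4hLPS replicate 1 and PF4hLPS replicate 2 lie mostly below 0, down to -0.80 and -0.87 for Oas1a.

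Further family genes were lower in level. Of 8 other Ifit and Oas genes 4 passed the filter, and 3 rose in the ethanol diet and 4 in pair-fed mice. Over all genes tested, 10.7% and 11.3% were called higher. Oas1b and Ifit1bl2 reached 1 FPKM in no saline library, so they passed the filter through their LPS libraries. Among saline libraries, Oas1c reached it only in EtOH replicate 1. Ifit1bl1 averaged 4.63 FPKM in EtOH4hLPS and 0.97 FPKM in EtOH, and 11.7 FPKM in PF4hLPS and 0.816 FPKM in PF (differences 1.53 and 2.70; limma adjusted p = 0.00344 and 4.23e-05). Oas1b, whose product in many laboratory strains is truncated, averaged 5 FPKM in EtOH4hLPS and 0.266 FPKM in EtOH, and 6.21 FPKM in PF4hLPS and 0.498 FPKM in PF. Oas1d, Oas1e and Oas1f stayed at 0.1 FPKM or less in all libraries. After LPS, all EtOH4hLPS libraries of Ifit1bl1 lay below all PF4hLPS libraries, as did 5.59% of all genes tested. Its difference was -1.06 (limma adjusted p = 0.187), and Ifit1bl2, Oas1b and Oas1c overlapped.

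Pde12, which degrades oligoadenylates, rose in pair-fed mice (0.78, limma adjusted p = 0.0276) and had a difference of 0.47 in the ethanol diet that did not pass. With equal total FPKM the pair-fed call of Pde12 was lost.

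Other sensors and effectors of RNA rose with the members. Of 13 genes, all tested, 11 rose in both diets and none fell. Over all genes tested, 10.7% were called higher in the ethanol diet and 11.3% in pair-fed mice. This list and those below were chosen with earlier results of these data known. Dhx58 of this list reached 1 FPKM in no saline library and passed the filter through its LPS libraries. Ddx58 (RIG-I) and Ifih1 (MDA5), helicases that detect viral RNA, rose by 3.40 and 3.73 in the ethanol diet and by 3.61 and 3.87 in pair-fed mice. Eif2ak2, the kinase PKR, rose by 3.09 and 3.47, and Tlr3, the endosomal sensor of paired RNA, by 2.62 and 3.37. Mavs, the adaptor of both helicases, and Tlr7 were the 2 genes that did not pass and are named after their values were seen, with -0.26 and 0.36 in the ethanol diet and -0.32 and 0.84 in pair-fed mice.

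Most interferon signalling genes rose, while nearly all interferon genes stayed under the filter on low values. Of 17 signalling and feedback genes, 13 rose in the ethanol diet, 12 in pair-fed mice, and none fell, beside 10.7% and 11.3% of all genes called higher. Socs1 and Socs3 reached 1 FPKM in no saline library and passed the filter through their LPS libraries. Irf7, which amplifies interferon production, rose by 4.82 in the ethanol diet and 5.00 in pair-fed mice, and Usp18, which dampens receptor signalling, by 5.14 and 5.59. Of 21 interferon genes 7 are listed at 0 in all 12 libraries, which is not read as a level, and only Ifnk passed the filter, and it had differences of -0.21 and -0.24 that did not pass. Ifnb1, the interferon most directly downstream of Irf3, had 0.108, 0.31 and 0.567 FPKM in EtOH4hLPS and was listed at 0 in all 3 EtOH libraries. It had 0.387, 0.147 and 0.732 FPKM in PF4hLPS, against 0.072 FPKM in PF replicate 1 and a listed 0 in the other PF libraries. Ifng, made by T and NK cells, had 0.236 to 0.876 FPKM in EtOH4hLPS and 0.422 to 0.799 FPKM in PF4hLPS, and at most 0.0785 FPKM in a saline library.

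Receptor genes had smaller medians, 0.66 and 0.64, than the signalling genes, 2.03 and 2.02. Of 5 interferon receptor genes tested, 4 rose in the ethanol diet and 3 in pair-fed mice, among them Ifnar1 (0.66 and 0.64) and Ifnar2 (0.63 and 0.82), but 1 and 0 with equal total FPKM. Of 12 genes of the Tlr4 route tested, 7 rose in the ethanol diet and 8 in pair-fed mice. For all of these lists, the share of all genes called higher was 10.7% in the ethanol diet and 11.3% in pair-fed mice. Cd14, the LPS co-receptor, rose by 4.64 and 4.36 and the kinase gene Tbk1 by 1.83 and 1.99. Of 23 other interferon-induced antiviral genes 21 rose in each diet and none fell, with medians of 3.05 and 3.22. Mx1, Mx2 and Isg20 among them reached 1 FPKM in no saline library and passed the filter through their LPS libraries. Rsad2 (viperin) averaged 648 FPKM in EtOH4hLPS and 14.4 FPKM in EtOH, and 635 FPKM in PF4hLPS and 12.4 FPKM in PF. No gene of these lists was called in any diet comparison or in the interaction.

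The genes whose pattern was most like the mean of the 10 members were Slfn4, Serpina3f, Gbp3, Mx1 and Igtp, with a Pearson r of 0.9987, 0.9983, 0.9983, 0.9980 and 0.9978 over 12 libraries. The libraries fall into an LPS and a saline cluster for every member, so r serves only to rank genes. Slfn4, Serpina3f and Mx1 reached 1 FPKM in no saline library, so they passed the filter through their LPS libraries and had to differ. Mx1 averaged 41.3 FPKM in EtOH4hLPS and 0.109 FPKM in EtOH, and 61.6 FPKM in PF4hLPS and 0.201 FPKM in PF. Slfn4, closest of all, averaged 29 FPKM in EtOH4hLPS and 0.0491 FPKM in EtOH, and 41.7 FPKM in PF4hLPS and 0.0547 FPKM in PF. As for Ifit3, Ifit3b and Oas3, all EtOH4hLPS libraries of Slfn4, Mx1 and Igtp lay below all PF4hLPS libraries. The share over all genes tested was 5.59%. Serpina3f and Gbp3 overlapped, and none of these genes was called between EtOH4hLPS and PF4hLPS. Among the members themselves, the r to the mean of the 10 members ran from 0.9333 for Oas3 to 0.9991 for Oasl1. That mean includes the member itself, so these r cannot be set beside those of the other genes.

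Protein-coding neighbours outside the families did not all move with the members. Within 250 kb of the Ifit cluster all 5 neighbours were tested, and 4 rose in the ethanol diet and 2 in pair-fed mice. Over all genes tested, 10.7% and 11.3% were called higher. Fas, a death receptor, rose by 3.61 and 3.48, and Ch25h, an interferon-inducible enzyme that makes 25-hydroxycholesterol, by 3.69 and 2.69. Ch25h averaged 0.188 FPKM in EtOH and 0.22 FPKM in PF, so it reached 1 FPKM in no saline library. It passed the filter through its LPS libraries and had to differ. Lipa and Pank1 rose in the ethanol diet by 0.68 and 0.67 (limma adjusted p = 0.036 and 0.0306) and had 0.04 and 0.18 in pair-fed mice. Their interaction was not called (limma adjusted p = 0.988 for both). Whether the calls of neighbours hold under other scalings was not examined, and scaling matters for differences as small as those of Lipa and Pank1. Around the Oasl pair 13 of 16 neighbours were tested, and none rose, while Unc119b fell in pair-fed mice (-0.68, limma adjusted p = 0.0307). Around the Oas cluster 6 of 12 were tested, and none passed in either direction, with differences of -0.38 to 0.16 in the ethanol diet and -0.57 to 0.06 in pair-fed mice.

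Markers of other cells also moved with LPS. The 8 neutrophil genes summed to 165 to 252 FPKM in EtOH4hLPS and 3.08 to 5.17 FPKM in EtOH, and to 175 to 411 FPKM in PF4hLPS and 3.46 to 5.43 FPKM in PF. Nearly all of that was S100a8 and S100a9, which rose in both diets, and the other 6 genes were each at 1.64 FPKM or less. Cxcr2 had 0.546 to 0.796 FPKM in EtOH4hLPS and 0.133 to 0.329 FPKM in EtOH, and 0.708 to 1.64 FPKM in PF4hLPS and 0.15 to 0.225 FPKM in PF. Csf3r, whose LPS libraries also lay above the saline libraries in each diet, did not pass the test. It was at 0.273 FPKM or less in the saline libraries and passed the filter through 3 LPS libraries, which favours such a separation. Of all genes tested, 18.8% in the ethanol diet and 18.5% in pair-fed mice were separated in this way. Camp had 0.213 to 1.22 FPKM in the LPS libraries and was listed at 0 in all 6 saline libraries. Elane was listed at 0 in 9 of 12 libraries, and Mpo and Ly6g were at 0.84 FPKM or less. Of 5 macrophage and dendritic cell genes tested none passed, and the list summed to 7.01 to 8.6 FPKM in EtOH4hLPS and 10.8 to 14 FPKM in EtOH, and to 4.64 to 8.31 FPKM in PF4hLPS and 9.57 to 12.9 FPKM in PF. With equal total FPKM, 2 of them were called lower in pair-fed mice. The remaining gene of that list, Cx3cr1, was under the filter, with 0.0168, 0.0481 and a listed 0 FPKM in EtOH4hLPS against 0.834, 0.612 and 0.965 FPKM in EtOH, and 0.018, 0.0911 and 0.0162 FPKM in PF4hLPS against 1.14, 0.812 and 0.981 FPKM in PF. The plasmacytoid dendritic cell genes Siglech and Ccr9 stayed at 0.436 FPKM or less in all libraries, and only Bst2 of that list, itself induced by interferon, rose. T, NK and B cell genes all stayed under the filter, with sums of at most 1.06 and 1.35 FPKM. Of 4 endothelial genes, Tek, Kdr and Pecam1 fell and Cdh5 rose in both diets, though Cdh5 did not pass in pair-fed mice with equal total FPKM. The part of these cells in the values of the Ifit and Oas genes was not tested.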

How the data were processed

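RNA of mouse kidney cortex was measured in 12 libraries, 3 in each of 4 groups, grouped by the titles in the labels. Per the labels' protocols, total RNA was depleted of ribosomal RNA and made into stranded libraries. The authors deposited 1 table of normalized FPKM per gene. The submitters' processing notes name Cuffnorm, Cufflinks 2.2.1, TopHat2 2.0.4, FastQC 0.10.1, Cuffdiff 2.1.1 and the mm10 build, and the annotation release is not given in the sources used here. FPKM is not a count, so log2(FPKM + 1) was fitted with limma 3.58.1 in R 4.3.3 (trend and robust prior, 1 mean per group over all 12 libraries) for genes at 1 FPKM or higher in 3 or more libraries. All p are two-sided, with Benjamini-Hochberg adjustment over all 14109 genes tested and a threshold of 0.05. No permutation test is given because 3 libraries against 3 cannot reach a p below 0.1. The fit was tested on simulated data. Gene identifiers were matched to GENCODE M21 (47305 of 47719 genes). All members were to be named, together with up to 6 genes of each list by mean FPKM, the 5 genes most like the members and protein-coding neighbours within 250 kb. Members and lists were chosen with earlier results of these data known. Alternatives were other pseudocounts, filters, scalings and variance models, single libraries left out, summed copies and a replicate block. Correlations of same-numbered libraries ran from -0.206 to 0.279, so the numbers were not taken to pair libraries. Some genes of the lists are not reported here.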

Additional observations from a re-analysis of the deposited data

How the results depend on the processing

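Under 27 alternatives, 8 to 10 members were called higher with LPS in pair-fed mice and in the ethanol diet, where 8 is all that a filter of 5 FPKM or summing the copies left to test. Leaving out single libraries gave 10 in pair-fed mice and 9 to 10 in the ethanol diet. With the replicate block, 10 and 10 members were called for LPS and 0 for each diet comparison and the interaction, and 6 of the 18 same-numbered pairs of libraries correlated best with each other, which gives no hint of pairing. Between EtOH4hLPS and PF4hLPS, 1 member was called with a pseudocount of 5 and 0 under every other alternative, and the cause was not tested. For the remaining diet comparisons and the interaction the count was 0 throughout. In EtOH4hLPS against PF4hLPS some differences turned above 0, and the cause was not tested. With equal total FPKM they were 0.10 for Ifit1, 0.10 for Ifit2, 0.06 for Oas1a, 0.05 for Oas1g and 0.13 for Oasl2, and without the 3 libraries of low GC slope (PF4hLPS replicate 2, EtOH4hLPS replicate 1 and PF replicate 1, an alternative chosen after seeing the data) 0.08 for Ifit1 and 0.03 for Ifit2. With single libraries left out, the difference ran from -0.59 to 0.25 for Oas1a, from -0.37 to 0.01 for Oas1g and from -0.33 to 0.13 for Oasl2. Calls over all genes varied more than those of the members: 1468 to 3323 in EtOH4hLPS against EtOH (2406 as reported), 1612 to 3423 in PF4hLPS against PF (2561), and 1 to 43 in EtOH4hLPS against PF4hLPS (14). They were 0 to 16 in EtOH against PF (4), 7 to 93 for both diets pooled (45) and 0 to 18 in the interaction (4). Fragment counts are not in the table, so the precision of the low Oas values is unknown.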

Other observations

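Summed over the family, the 4 Ifit genes stood at 2186 ± 260 FPKM in EtOH4hLPS and 8.9 ± 0.978 FPKM in EtOH, and at 2758 ± 254 FPKM in PF4hLPS and 9.05 ± 1.85 FPKM in PF (SD, n = 3 each). The 6 Oas and Oasl genes stood at 133 ± 35.9 FPKM in EtOH4hLPS and 3.63 ± 0.482 FPKM in EtOH, and at 153 ± 33.7 FPKM in PF4hLPS and 3.93 ± 0.251 FPKM in PF.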
